A study of Chlamydomonas reinhardtii with 15 samples.

Results

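The starvation response of the wild type 4A+ of Chlamydomonas reinhardtii, a single-celled green alga, was followed on the 4 arrays whose strain label is 4aplus, out of 15 arrays in the series. Each array compared RNA of cells starved of sulfur for 24, 48, 72 or 96 h, labelled with Cy5 (red), with RNA of 4A+ at 0 h, labelled with Cy3 (green). Cells had been grown in TAP medium, which contains acetate and sulfur, to early stationary phase, then washed and moved to TAP without sulfur under constant light. The other arrays carried the wild types cc3491 (4 arrays) and cc125 (4 arrays) and the insertional mutant npq4 (3 arrays at 24, 48 and 96 h), whose stress-related antenna genes LHCSR3.1 and LHCSR3.2 are knocked out and for which 4A+ was the control. All 4 arrays of 4A+ share the same 0 h reference, and 3 biological samples were pooled before labelling. The arrays are therefore time points of one course and not separate cultures. The p-values measure the spread between time points, pooled over the 15 arrays of all strains. All 4 arrays lay on 1 slide, so that slide and strain cannot be told apart.

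Sulfur is needed for cysteine, methionine, glutathione and the sulfolipid of the thylakoid membrane. When sulfate runs out, Chlamydomonas is known to make periplasmic arylsulfatases that release sulfate from organic esters, sulfate transporters of high affinity, and cell wall proteins that are poor in sulfur amino acids. It also lowers photosynthesis, and in the light it can become anaerobic and produce hydrogen. Which transcripts moved in 4A+ under these conditions was the question of the comparison.

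The array holds 43687 probes for 14557 transcript models of the JGI annotation 3.1, usually 3 probes for a model. Of these, 32076 probes of 13430 models were tested. Values are log2 ratios of starved (red) over 0 h (green) RNA, averaged over the tested probes of each model. A model was called when its Holm adjusted p from limma was below 0.05 and its mean over the 4 arrays differed from 0 by at least 2-fold. A less strict count used the same fold with Benjamini-Hochberg adjustment. Because an offset of 50 was added to every signal before the logarithm, ratios of dim probes are drawn towards 0, and the mean of the ratio given by the scanner software, which has no such offset, is printed beside the main genes as "scanner ratio".

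The red channel was dim in 4A+. Between 8728 and 12424 probes were well above background in red and between 18226 and 19606 in green, whereas on the other 11 arrays red reached 14355 to 26604 and green 16699 to 29100. The 24 h array had the fewest probes above background in red, although its median net red signal was the highest (27.5, against 9.5 to 11 later). In 4A+, 4813 probes were above background in green on all 4 arrays and in red on none, while only 21 showed the opposite. Of the 32076 tested probes, 10238 were above background in neither channel on any array of 4A+, and none of these was called. They were tested because other strains had signal, and they enter the means of their models. A fall of a probe with green signal but no red signal is a lower bound, since the starved level lies in the background. The ratio of a probe with signal in neither channel gives no bound. Directions are given as labelled. The mean ratios of 4A+ correlated with those of cc3491 (Pearson's r 0.54) and npq4 (0.57) but with -0.34 with those of cc125, across 32076 probes, which are not independent replicates. With the sign turned, the 440 called models below would be 302 higher and 138 lower.

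**Figure D1:**
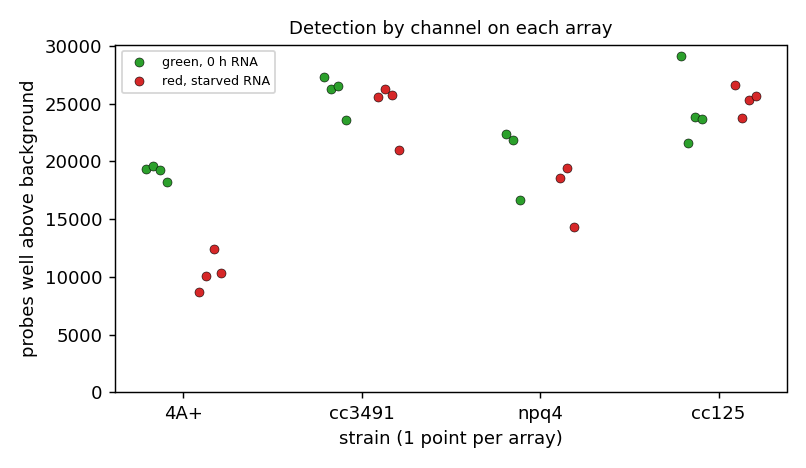
Number of probes well above background (y axis) in green (0 h RNA) and red (starved RNA), 1 point per array, for each strain (x axis). In 4A+ the red points lie between 8728 and 12424, below the green points between 18226 and 19606.

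In 4A+, 440 of 13430 models were called, 3.28% of those tested, with 138 higher (1.03%) and 302 lower (2.25%) during starvation. All 440 had the same sign at all 4 time points, as had 46.3% of all models tested, and for 237 of them at least 2 probes were called singly. Taken probe by probe, 906 of 32076 (2.82%) were called, 297 higher (0.926%) and 609 lower (1.9%). With Benjamini-Hochberg adjustment 1078 models passed (8.03%), 499 higher (3.72%) and 579 lower (4.31%). On single arrays 565 to 664 models were at least 2-fold higher and 604 to 653 at least 2-fold lower, and the arrays correlated with each other at 0.804 to 0.907 across models. The balance of directions depended on scaling and filter. It was 17 higher and 588 lower when each array was centred on its median, and 273 higher and 372 lower among models measured in both channels on all 4 arrays. Of the 302 models called lower, 178 had at least 1 probe with no red signal above background on any array.

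Most genes of sulfate scavenging and uptake changed. Of 9 tested members, 6 rose (SLT1, ECP76, ARS1, SABC, ECP88 and SLT2), 2 fell (ARS5 and SLT3) and 1, ARS2, was not called. Their median was 2.07, against -0.0068 over all models, of which 1.03% were called higher and 2.25% lower. The study had picked part of these genes on the arrays of this series, and symbols were taken from its tables, so that the count is not independent evidence of a direction.

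SLT1, a plasma membrane sodium/sulfate co-transporter, had log2 ratios of 4.87, 4.77, 4.24 and 4.32 at 24, 48, 72 and 96 h. Its mean of 4.55 ± 0.32 (SD, n = 4) corresponds to 23.4-fold (Holm adjusted p 7.75e-05), and all 3 probes were above background in both channels. The related SLT2 was at 1.48, 1.55, 1.36 and 1.42, with a mean of 1.45 ± 0.08 (SD, n = 4) and a scanner ratio of 3.61. Only 1 of its 3 probes was called singly, at 3.47, while probe 2 was above background in green on none of the arrays and in red on all 4. SLT3 went the other way, at -1.57, -1.72, -1.13 and -1.66. The 3 transporters of one family thus differed in direction, and they did so on every array. For SLT3 the fall is a lower bound on 2 of 3 probes, whose red signal never left the background.

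ARS1, a periplasmic arylsulfatase, was at 2.51, 2.53, 2 and 2.33, a mean of 2.34 ± 0.25 (SD, n = 4) with a scanner ratio of 4.06. ARS2, a second periplasmic arylsulfatase, was at 0.22 at 24 h and at 0.91, 1.17 and 1.17 later, and its mean of 0.86 missed the fold limit. Of its 3 probes, 2 were above background in neither channel on any array, while probe 1 was at 2.46 and was not called singly. ARS5, an arylsulfatase-like protein, was at -1.73, -2.02, -2.20 and -1.86, a fall of 3.87-fold. The arylsulfatases of the array therefore did not share a direction.

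ECP76 and ECP88, extracellular polypeptides of the cell wall that are made under sulfur starvation, rose by 2.39 ± 0.17 and 2.07 ± 0.14 (SD, n = 4). ECP76 was at 2.34, 2.65, 2.28 and 2.29 and ECP88 at 2.04, 2.16, 2.20 and 1.88, and no array of either was near 0. The means understate ECP76, since its probe 1 was at 4.83, whereas probe 3 was above background in green on no array and stayed at 0.26. SABC, described as CysA-like, the ATP-binding part of a chloroplast sulfate transporter, rose by 2.25 ± 0.24 (SD, n = 4).

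**Figure D2:**
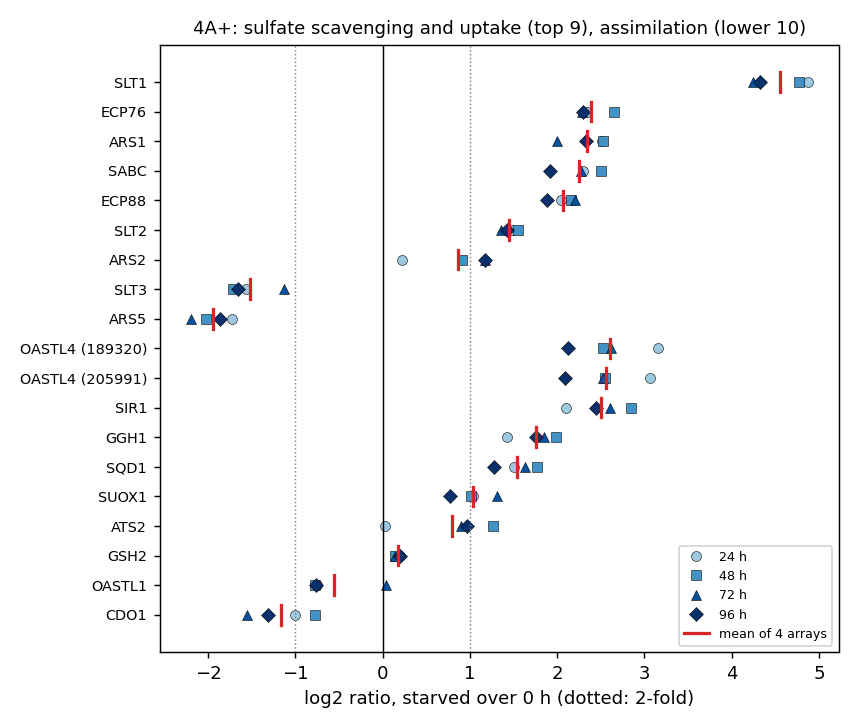
Log2 ratio of starved over 0 h RNA (x axis) of each tested gene of sulfate scavenging and uptake and of sulfate assimilation in 4A+ (y axis), with 1 symbol per time point and the mean of the 4 arrays as a bar. SLT1 lies between 4.24 and 4.87, and only SLT3, ARS5, OASTL1 and CDO1 have a negative mean.

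Downstream of uptake, 5 of 10 tested genes of sulfate assimilation, cysteine and methionine metabolism rose, none fell, and their median was 1.29. With Benjamini-Hochberg adjustment 6 were higher and 1 lower. Over all models, 1.03% were called higher, and 3.72% were higher with Benjamini-Hochberg adjustment. The 5 include both models with the symbol OASTL4, described below, which may not be independent. SIR1, the ferredoxin-sulfite reductase that reduces sulfite to sulfide, was at 2.10, 2.85, 2.61 and 2.44, a mean of 2.50 ± 0.31 (SD, n = 4, Holm adjusted p 0.036). SQD1, the UDP-sulfoquinovose synthase that supplies the head group of sulfolipid, was at 1.5, 1.77, 1.63 and 1.27. SUOX1, sulfite oxidase, was at 1.03, 1.01, 1.31 and 0.77, close to the fold limit at a mean of 1.03. Its probe 1 was called singly at 2.96. Its probes 2 and 3, above background in neither channel on any array, were at 0.14 and -0.0065 and lower that mean. ATS2, ATP sulfurylase and thus the enzyme at the entry of the pathway, was at 0.03 at 24 h and at 1.26, 0.90 and 0.97 later, and it was not called. GGH1, a gamma-glutamyl hydrolase, had a mean of 1.76 and passed only with Benjamini-Hochberg adjustment.

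OASTL4 is a cysteine synthase (O-acetylserine thiol-lyase), which joins sulfide to O-acetylserine. It is present as models 189320 and 205991, with means of 2.61 ± 0.43 and 2.56 ± 0.40 (SD, n = 4) and close ratios on every array. Both were highest at 24 h (3.16 and 3.06) and lowest at 96 h (2.12 and 2.09), and neither slope passed a test. The probes of model 205991 (RefSeq locus CHLRE_07g329500v5 of assembly version 5.5) are given because they show how far a model's mean depends on its probes. Capitals mark the bases that probes of one gene share.
OASTL4 probe 1: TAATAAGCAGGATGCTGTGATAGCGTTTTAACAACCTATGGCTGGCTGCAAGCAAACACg
OASTL4 probe 2: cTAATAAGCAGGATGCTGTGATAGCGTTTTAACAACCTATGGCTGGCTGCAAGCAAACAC
OASTL4 probe 3: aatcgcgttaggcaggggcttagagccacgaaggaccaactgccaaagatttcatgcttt
Probes 1 and 2 share 59 of 60 bases and gave 3.69 ± 0.49 and 3.83 ± 0.71 (SD, n = 4), so that they amount to 1 measurement. Probe 3 shares no run of 12 bases with them, was above background in green on no array and in red on 1, and gave 0.16.

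The other cysteine synthase, OASTL1, was at -0.75, -0.78, 0.04 and -0.76 and was not called. CDO1, cysteine dioxygenase, which oxidises cysteine to its sulfinic acid, was at -1.01, -0.78, -1.56 and -1.32. Its mean of -1.17 ± 0.34 (SD, n = 4) passed only with Benjamini-Hochberg adjustment. Several calls among these sulfur genes rested on all 4 arrays. Whichever array was left out, SIR1, SLT2 and both OASTL4 models were no longer called, with SIR1 between 2.38 and 2.63 and adjusted p from 0.187 to 0.499. SUOX1 was not called without the 72 h array (0.94), ECP88 without the 48 h or the 72 h array (highest adjusted p 0.0516). SLT1, ARS1, ECP76, SABC, SQD1, ARS5 and SLT3 were called in every one of these runs. In a fit to the 4 arrays of 4A+ alone, ARS1, ARS5, SABC, SQD1, SLT3, SIR1, SUOX1 and both OASTL4 models were not called. With median centring SABC, SLT2, SQD1, SIR1, SUOX1 and both OASTL4 models were not. Every rise called among the assimilation genes was thus lost with median centring. SUOX1 was also not called with the scanner ratio.

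HAP1, a putative haloperoxidase, rose at every time point (1.94, 2.13, 1.87 and 1.71), and its mean of 1.91 again hides unlike probes, given here for that reason.
HAP1 probe 1: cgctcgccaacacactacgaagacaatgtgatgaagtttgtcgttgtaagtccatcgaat
HAP1 probe 2: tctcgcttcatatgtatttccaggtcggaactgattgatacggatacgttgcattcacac
HAP1 probe 3: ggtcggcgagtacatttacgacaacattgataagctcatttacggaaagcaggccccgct
Probe 2 was at 4.11 ± 0.31 (SD, n = 4), while probes 1 and 3 were at 0.64 and 0.98. The scanner ratios were 4.87, 1.93 and 4.35, so probe 3, above background in green on 1 array only, lies with probe 2 on that scale. The gene (CHLRE_13g585500v5) has as its neighbour in the RefSeq gene order CHLRE_13g585550v5, model 143696, which rose by 4.65. Of 7643 neighbouring pairs with both models tested, this was the only one called higher on both sides, 5 pairs were lower on both sides and 4 went in opposite directions. Pairs called in 1 direction made up 0.0785% of all pairs. The shares of single models called, 1.03% higher and 2.25% lower, are no baseline for a share of pairs. Whether neighbours share calls more often than other models was not tested.

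The models of largest change were taken among those with at least 2 called probes, signal in both channels on at least 3 arrays and 1 sign on all 4 arrays. LHCBM9, a light-harvesting protein of photosystem II (LHCII) known for its rise under sulfur starvation, was at 6.39, 6.54, 5.88 and 5.85. Its mean of 6.16 ± 0.35 (SD, n = 4) is 71.6-fold (Holm adjusted p 1.66e-08), with 7.24, 5.20 and 6.05 for its 3 probes, none of them saturated in red. Model 184282, without a name in the tables used, was at 5.33, 5.94, 5 and 4.79. Model 56993, described as the peptidase subunit of the mitochondrial protease hslUV, was at 2.82, 3.16, 3.04 and 2.76, with its 3 probes between 2.79 and 3.11. The highest array was that of 48 h for all 3 models.

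On the other side, models 188207 and 144348, also unnamed, fell by 4.92 and 4.76 on the log2 scale. The 4 arrays of 188207 were at -4.72, -4.45, -5.63 and -4.88. For 144348, at -4.33, -4.57, -5.5 and -4.63, the green signal of probe 2 was saturated throughout, which makes its fall a lower bound. TUB2, beta tubulin and a main protein of the flagellar axoneme, was at -3.17, -3.72, -5.19 and -4.09, a mean of -4.04 ± 0.86 (SD, n = 4) with probe 3 saturated in green. TRK1, the transketolase of the Calvin cycle, fell by 2.86 and IPY3, a soluble inorganic pyrophosphatase, by 2.29. In TUB2, 144348 and 188207 the 72 h array was the lowest of the 4. TUB2, TRK1 and 144348 were not called in a fit to the arrays of 4A+ alone.

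**Figure D3:**
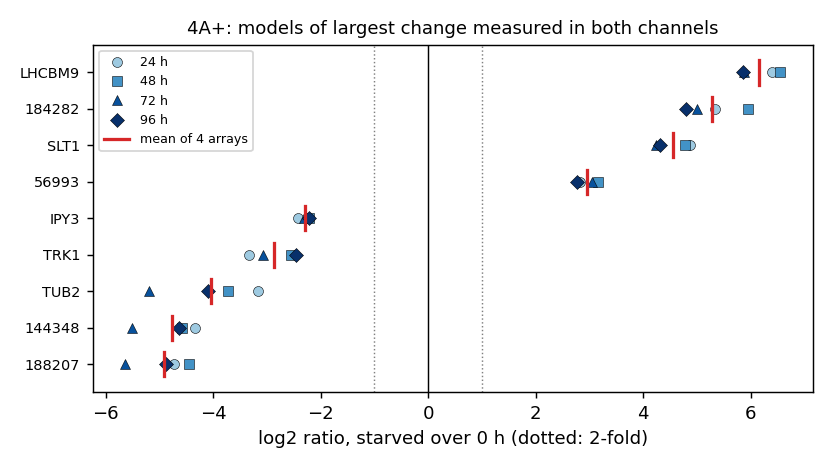
Log2 ratio of starved over 0 h RNA (x axis) of the models of largest change with signal in both channels in 4A+ (y axis), with 1 symbol per time point and the mean of 4 arrays as a bar. Means run from LHCBM9 at 6.16 to 188207 at -4.92. A single sign on all arrays was part of the rule that chose these models.

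Further named models lay outside the rule for the largest changes and were chosen after their values were seen. CGL73, of unknown function, rose by 4.47 ± 0.19 (SD, n = 4), and SBD1, a selenium binding protein, by 2.88 ± 0.17 (SD, n = 4). RDP3, with a rhodanese domain, rose by 1.91 and the amino acid transporter AOT2 by 1.85. TEF13 was at 4.77 at 24 h and at 1.86 at 72 h, the widest range among the called models named here, and its call was lost without the array of 24, 48 or 96 h (highest adjusted p 0.175). CPLD26 (4.39) and HPD1 (4.15), which makes homogentisate for tocopherol and plastoquinone, were not called and passed only with Benjamini-Hochberg adjustment. VSP3, an extracellular matrix protein, fell by 2.25 ± 0.13 (SD, n = 4).

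Most other transcripts of the photosynthetic antenna were lower under the less strict test. Of 9 light-harvesting genes tested, LHCBM9 rose and LHCA8 fell, and with Benjamini-Hochberg adjustment 6 were lower (LHCA7, LHCA1, LHCBM7, LHCA8, LHCB5 and LHCA5). The median of the 9 was -2.02, and over all models 4.31% were lower with Benjamini-Hochberg adjustment. LHCA8, of the antenna of photosystem I, was at -2.78, -2.07, -1.74 and -2.21, and its call was lost without the array of 24, 48 or 96 h (highest adjusted p 0.177). LHCA1 was at -2.70, -2.68, -2.78 and -1.86, and LHCA5 at -1.69, -1.59, -1.71 and -1.40. LHCBM4 (0.43) and LHCBM8 (-0.32), antenna proteins of photosystem II like LHCBM9, were not called. The probes of LHCA7 are given since 2 of them overlap and the other shows a fall that runs into the background.
LHCA7 probe 1: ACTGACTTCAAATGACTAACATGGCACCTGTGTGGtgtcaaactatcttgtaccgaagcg
LHCA7 probe 2: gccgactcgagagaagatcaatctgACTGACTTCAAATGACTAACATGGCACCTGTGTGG
LHCA7 probe 3: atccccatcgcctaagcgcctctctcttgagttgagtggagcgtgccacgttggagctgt
Probes 1 and 2 share 35 bases and were at -4.33 ± 0.59 and -3.97 ± 0.55 (SD, n = 4). Probe 3, above background in green on all 4 arrays and in red on none, was at -1.09, which stands for a fall of at least 2.13-fold. The mean of LHCA7 was -3.13 ± 0.43 (SD, n = 4) and its Holm adjusted p 0.351.

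Both subunits of photosystem I on the list, PSAO and PSAH, were lower with Benjamini-Hochberg adjustment, at -3.02 ± 0.52 and -2.61 ± 0.85 (SD, n = 4), and neither was called with Holm adjustment. PSAH, which docks the antenna of photosystem II to photosystem I, was at -2.42, -2.96, -3.52 and -1.54. PSAO was at -3.17, -3.16, -3.48 and -2.28. In both genes, as in LHCA1, LHCA5 and LHCA7, the 96 h array was the nearest to 0. Of 2 tested genes of photosystem II, neither passed a test, and their median was -0.024. Of 4 genes of electron transport, FNR1 (ferredoxin-NADP reductase, -1.35) and PETO (a cytochrome b6f subunit, -1.21) were lower with Benjamini-Hochberg adjustment. Over all models, 4.31% were lower with Benjamini-Hochberg adjustment and 2.25% with Holm adjustment. In the Calvin cycle, besides TRK1, GAP3 was lower in the same way at -1.58. CSP41a and CSP41b, which bind plastid RNA, were called lower at -1.64 and -2.04, while no ribosomal protein of the plastid passed either test and 3 of the 7 members of that list had no probe with red signal.

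The stress-related antenna proteins LHCSR dissipate excess light. LHCSR1 was at 4.74, 6.05, 5.65 and 5.16, with a mean of 5.40 ± 0.57 (SD, n = 4), and passed only with Benjamini-Hochberg adjustment (Holm adjusted p 0.111). Its probes 1 and 2 were at 7.53 and 7.65, its probe 3, above background in green on no array, at 1.03. LHCSR2 (0.41) and LHCSR3 (0.71) did not pass, though all 4 arrays of each were positive. Probe 1 of LHCSR3, above background in both channels on all 4 arrays, was at 1.8 (scanner ratio 2.83) and was not called singly. Probe 2 of LHCSR3 was at 0.34. Probe 3 of LHCSR3, above background in neither channel on any array, was at -0.017 and lowers that mean. Probes 1, 2 and 3 of LHCSR2 were at 0.35, 0.8 and 0.072, and none was called singly. ELI3, an early light-inducible protein, was at 0.86. Its probe 1 was called singly at 2.66 (limma, Holm adjusted p 0.0485). Its probes 2 and 3 were at -0.1 and 0.031, with red signal above background on 1 array and on none.

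**Figure D4:**
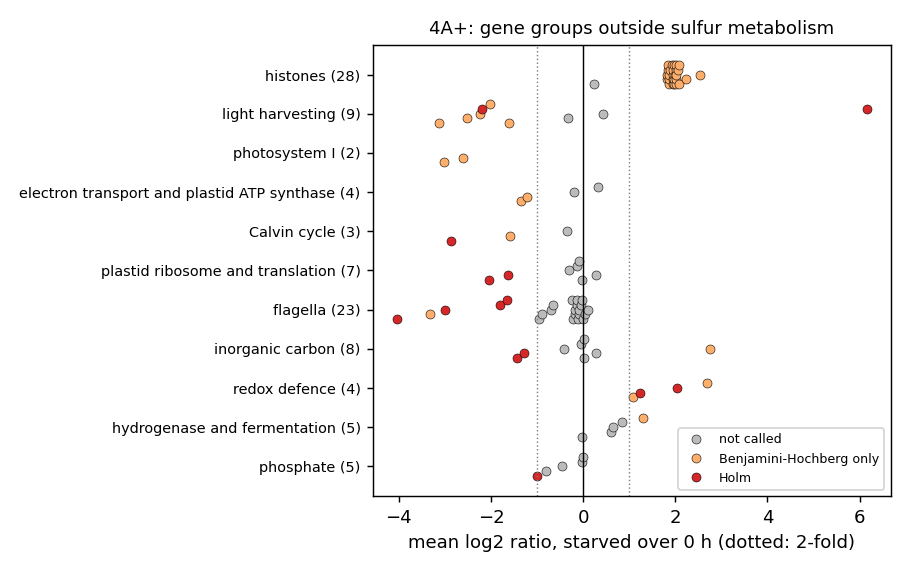
Mean log2 ratio over the 4 arrays of 4A+ (x axis) for each tested member of 11 gene groups (y axis, number of members in brackets), coloured by the adjustment it passed together with a 2-fold change. The solid line is the median of all models (-0.0068) and dotted lines mark 2-fold. Most histone genes lie near 2, most photosystem I and antenna genes below -1, and most flagellar genes near 0 with 5 below -1.

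Flagellar transcripts, which code for the motile cilia of the cell, were called in 1 direction. Of 23 tested members, 4 fell (TUB2, FAP7, FAP138 and FAP114), 5 with Benjamini-Hochberg adjustment, and none rose, while 21 of 23 means were negative. Over all 13430 models, 2.25% were called lower, 4.31% with Benjamini-Hochberg adjustment, and 7079 means were negative. For 12 members no probe had red signal above background on any array. Their ratios near 0 give bounds only on probes with green signal. Probes with signal in neither channel, such as both of FAP267, give none. All 12 enter the counts of means above. With the scanner ratio 13 were called lower. FAP7 was at -2.03, -2.53, -3.93 and -3.51, and its call was lost without the array of 48, 72 or 96 h (highest adjusted p 0.302). That of FAP114 was lost with the time point as a replicate block. FAP138, at -1.47, -1.83, -2.18 and -1.74, shows the background limit on its 3 probes.
FAP138 probe 1: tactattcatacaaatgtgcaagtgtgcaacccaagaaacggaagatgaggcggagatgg
FAP138 probe 2: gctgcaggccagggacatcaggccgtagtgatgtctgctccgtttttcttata
FAP138 probe 3: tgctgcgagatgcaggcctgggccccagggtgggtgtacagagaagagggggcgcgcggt
Probe 1, with red signal on all 4 arrays, was at -3.78 ± 0.75 (SD, n = 4). Probes 2 and 3, with red signal on none, were at -0.60 and -1.04, for falls of at least 1.51-fold and 2.06-fold. Their scanner ratios were -3.10 and -2.78, against -5.03 for probe 1. The G+C content of the probes was 45.0%, 52.8% and 70.0%.

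Models whose probes were all above background at 0 h and in red on no array were named from the brightest down, and their folds are lower bounds. Model 185219, with a C2 calcium/lipid binding domain, had ratios of -2.21, -2.31, -2.59 and -2.18, and its 3 probes gave at least 5.95-fold, 4.05-fold and 5.2-fold. It passed only with Benjamini-Hochberg adjustment (Holm adjusted p 0.0886). PTB2, a sodium/phosphate symporter, was called lower at -1 ± 0.19 (SD, n = 4), at least 2.01-fold. That call was lost when any 1 array was left out (adjusted p 0.172 to 0.582). FAP71 was at least 1.86-fold lower, FAP152 at least 1.57-fold, PTB5, a second sodium/phosphate symporter, at least 1.38-fold, and none of these passed the fold limit. The putative acetate transporter 115491 (-0.49), IF2Be (-0.28) and the cysteine protease-related CPR1 (-0.11) complete the 8 named of 11 such models. No model with signal in red on all arrays and in green on none qualified.

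Of 8 tested genes of inorganic carbon uptake, 2 were called lower and 6 were not called. Their median was -0.023, with 4 positive and 4 negative means, against -0.0068 over all models, of which 2.25% were called lower. The 2 were CAH1, a periplasmic carbonic anhydrase, and LCR1, the regulator known to act on it at low CO2. Both were negative on all 4 arrays. CAH1 was at -1.23, -1.22, -1.62 and -1.10 and LCR1 at -1.45, -1.43, -1.59 and -1.32. On 2 of 3 probes of each the red signal was never above background, and the strongest probe of CAH1, probe 1, fell at least 5.16-fold. Probe 3 of CAH1, with red signal on all 4 arrays, was at -0.78 and was not called singly. The call of CAH1 was lost with normexp fitted on all spots, with only probes in both channels and with the arrays of 4A+ alone. That of LCR1 was lost with probes 1 and 2 only. LCI28, a low-CO2-induced aldose reductase, was at 0.36 at 24 h and at 3.11, 4.82 and 2.72 later and passed only with Benjamini-Hochberg adjustment. Of 5 genes of nitrogen uptake only NAR1.3, a formate/nitrite transporter, was called, at 2.88, 2.23, 1.8 and 1.58.

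Of 28 histone genes tested, 27 passed with Benjamini-Hochberg adjustment, all higher, and none with Holm adjustment (smallest adjusted p 0.168). These 27, all H2B genes, had means from 1.81 to 2.54, and the only H2A gene, HTA2, was at 0.24. The genes are near-identical copies whose probes may share targets, so that 27 similar values are not 27 independent ones. Over all models, 3.72% were higher with Benjamini-Hochberg adjustment and 1.03% with Holm adjustment. In redox defence 2 of 4 genes rose, NTR2 (NADPH-dependent thioredoxin reductase, 2.04 ± 0.48) and APX2 (ascorbate peroxidase, 1.24 ± 0.09, SD, n = 4), and all 4 passed with Benjamini-Hochberg adjustment. The call of APX2 was lost when any 1 array was left out (adjusted p 0.189 to 0.318). Among them the glutathione-S-transferase GSTS1 was at 0.66 at 24 h and between 3.07 and 3.73 later. Of 5 genes of hydrogen production and fermentation, ADH1, alcohol dehydrogenase, was higher with Benjamini-Hochberg adjustment at 1.85, 1.54, 0.67 and 1.09. Probe 1 of ADH1 was called singly at 3.46. Probe 2 of ADH1, above background in neither channel on any array, was at 0.052, and probe 3, with red signal on 2 arrays, at 0.35. The hydrogenase HYDA2 was at 1.32, 0.93, 0.55 and 0.56, highest at 24 h like ADH1, and its mean of 0.84 missed the fold limit. Its probes 1 and 2, above background in both channels on all 4 arrays, were at 1.98 and 0.52. Its probe 3, above background in neither channel on any array, was at 0.025 and lowers that mean. None of 9 chaperones and 3 cytosolic ribosomal proteins passed either test. Of the tetrapyrrole genes, CPX1, coproporphyrinogen oxidase, passed with Benjamini-Hochberg adjustment at 2.58. MTA4 and MTA4a, genes of the mating-type plus locus, had signal in both channels on all 4 arrays, and neither passed a test.

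Whether ratios moved between 24 and 96 h was tested as a slope per 24 h. No model was called (0 of 13430, 0%) with Holm or Benjamini-Hochberg adjustment, 351 models (2.61%) had an unadjusted limma p below 0.05, with 0.757 as the lowest Benjamini-Hochberg adjusted p. The courses of ARS2, LCI28, GSTS1 and ATS2, low at 24 h and higher later, are thus single series without a test behind them. For all of these the 24 h array, the one with the fewest probes above background in red, was the lowest. Whether the red channel has a part in this was not tested.

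The response of 4A+ was set against that of cc3491, and 202 models (1.5%) differed by at least 2-fold with Holm adjustment, 82 higher and 120 lower in 4A+. Against npq4, 128 models differed (0.953%), 24 higher and 104 lower. With any 1 array of 4A+ left out the 24 became 12 to 14. Of the 302 models that fell in 4A+, 93 differed in response from cc3491 and 90 from npq4, and of the 138 that rose 9 and 1. These sets were chosen by the same 4A+ ratios that enter the contrasts, so the counts are not independent evidence of a strain difference. Arrays of 4A+ and cc3491 did not overlap for 26.2% of models, and those of 4A+ and npq4 for 29.5%. Such a contrast compares cultures, each with its own 0 h sample and slide.

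CDO1 differed from both strains. It was at -1.56 to -0.78 in 4A+, at 1.19 to 2.33 in cc3491 and at 3.33 to 3.67 in npq4, without overlap. The difference was -2.91 (SE 0.26) from cc3491 and -4.62 (SE 0.28) from npq4. Models 188207 and 144348 also fell further in 4A+, with differences of -3.56 and -3.81 from cc3491 and of -4.08 and -5.02 from npq4. These 3 models kept their calls with the scanner ratio, at -3.86, -4.02 and -4.26 against cc3491. The hydroxyproline-rich glycoprotein 195937, of a class of cell wall proteins, was at -3.73 to -3.19 in 4A+, -1.22 to -0.67 in cc3491 and -0.67 to -0.51 in npq4. Its 3 probes had red signal in 4A+ on 2 arrays each, and with the scanner ratio its differences (-2.75 and -4.19) were not called.

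In the opposite direction, PTB2 and the proton pump PMA2 of the plasma membrane had less negative ratios in 4A+. PMA2 was at -0.91 to -0.49 there, at -3.62 to -3.13 in cc3491 and at -3.06 to -2.47 in npq4. In 4A+ 2 of 3 PMA2 probes and all 3 PTB2 probes had no red signal above background, so these differences, 2.64 and 1.94 for PMA2 and 2.17 and 2.90 for PTB2, are upper bounds. With the scanner ratio none of them was called, and PTB2 changed sign against cc3491 (-0.26). PHC17, a pherophorin of the cell wall, was at -2.25 to -1.85 in cc3491. In 4A+ its 3 probes had green signal on 4, 1 and 0 arrays and red signal on none, so the ratio there, -0.04 to 0.14, is one of values at background and measures no difference between the strains. CBF5, described as centromere and microtubule binding, was at 0.62 at 24 h and near 0 later, against -1.79 to -1.49 in npq4. LHCBM4 was 3.02 higher in 4A+ than in cc3491. CAH1, LCR1 and SLT3 were higher by 1.47, 1.48 and 1.05, with 2 of 3 probes of each without red signal in 4A+, and with the scanner ratio none of these 4 genes was called (3.3, 0.18, 0.44 and -0.33).

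**Figure D5:**
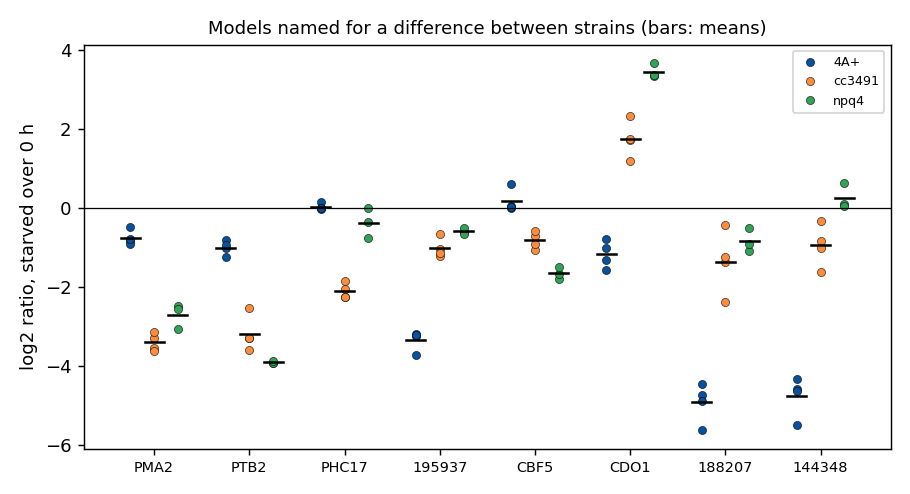
Log2 ratio of starved over 0 h RNA (y axis) on each array of 4A+, cc3491 and npq4 for the models named for a difference between strains (x axis), with bars at the means. CDO1 is below 0 in 4A+ and above 0 in the other strains, and 188207 and 144348 lie at -5.63 to -4.33 in 4A+ only.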

How the data were processed

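Per the labels and file headers, RNA was hybridised to Agilent arrays with 2 colours and read with Feature Extraction 10.7.3.1. The deposited intensity of each spot and its local background are median pixel values, with no correction or dye normalization. A log10 ratio of the channels, made by that software with its own background and dye correction, was deposited beside them. It equals the series matrix and was turned into the scanner ratio. Intensities were corrected in limma 3.58.1 (R 4.3.3) by normexp with an offset of 50, fitted on spots without outlier marks and with net signal above -100, then by loess within each array. A probe was tested if 1 channel or both stood well above background on 3 or more of 15 arrays. A model with 1 mean per strain was fitted to all 15 arrays. Tests of a ratio against 0 hold no spread of the culture at 0 h. Bounds set the mean 0 h level against the higher of the starved level and the lowest level well above background on each array. They are open to dye bias, since no dye swap was stated. The number of arrays limits the precision.

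Named were members of 21 gene lists, up to 10 annotated models and 3 of any annotation with the largest change each way, up to 8 falls into background, up to 3 each way for each strain difference, and called slopes. Only 3 annotated models qualified each way, 1 was lower against cc3491, 2 were lower against npq4, and no slope qualified. Members, lists and settings were chosen with earlier results of these data known. Symbols came from tables of the study, which list genes that it found changed. One table whose names are displaced against their probe numbers was not used. Alternatives were the scanner ratio, median centring, offset 0, other filters, probe sets and arrays, a replicate block, and leaving out arrays.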

Additional observations from a re-analysis of the deposited data

Results flagged for a closer look

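Of 90 followed models, 7 had 1 array of 4A+ apart from the other 3 by Dixon's criterion, where chance gives about 1 in 20. These were ECP76 at 48 h (2.65), PHC17 at 24 h (0.14), CBF5 at 24 h (0.62), OASTL1 at 72 h (0.043), PTA3 at 72 h (0.025), 195937 at 72 h (-3.73) and LHCA1 at 96 h (-1.86).

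The response of 4A+ differed from that of cc3491 by limma's contrast for CDO1 (-2.91), 144348 (-3.81), 188207 (-3.56), 195937 (-2.33), PHC17 (2.12), PMA2 (2.64), LHCBM4 (3.02), PTB2 (2.17), SLT3 (1.05), LCR1 (1.48) and CAH1 (1.47). It differed from that of npq4 for CDO1 (-4.62), 144348 (-5.02), 188207 (-4.08), 195937 (-2.75), PMA2 (1.94), PTB2 (2.9) and CBF5 (1.82). With the scanner ratio, CDO1, 144348 and 188207 were called against both strains and CBF5 against npq4, and the others were not. The value of PHC17 rests on probes at background in 4A+.

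Outside the numbered probes, the arrays carry 18 spots for 6 model numbers, 3 spots each, of which 168073 is also among the numbered models. On all 4 arrays 3 of these numbers were above background in both channels, with log2 ratios of -2.55 for 151833, -0.26 for 168073 and 1.2 for 400751.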

How the results depend on the processing

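Of 440 models called in 4A+, the scanner ratio gave 1227 (416 of them shared), an offset of 0 gave 911, Benjamini-Hochberg adjustment 1078 (46.3% higher, against 31.4%) and the 4 arrays of 4A+ alone 227 (161 shared). Without the arrays of cc125 501 were called (374 shared). Median centring gave 605 (17 higher and 588 lower) and models in both channels 645 (273 and 372). Leaving out 1 array gave 273 (without 48 h) to 317 (without 24 h), with 79 to 96 higher and 192 to 223 lower. With the time point as a replicate block 306 were called, of which 302 were shared. The numbers are time points, not shared cultures.

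Differences from cc3491 (202) numbered 861 with Benjamini-Hochberg adjustment, 298 with the scanner ratio (62 higher and 236 lower), 159 in both channels (28 and 131) and 135 to 152 with 1 array left out. Those from npq4 (128) numbered 507, 217 with the scanner ratio and 90 to 98 with 1 array left out (12 to 14 higher). The slope count of 0 became 1 with the scanner ratio (196797) and 0 to 1 with 1 array left out (183771, without 96 h).

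Signs turned for PHC17 with the scanner ratio (-0.38), with probes 1 and 2 (-0.0043) and without 24 h (-0.018, and 0.041 at most with another array left out), and under median centring for ATS2 (-0.33) and CBF5 (-0.068). Of 45 called models among the 90 followed, 33 were called whichever array was left out. The causes were not tested. Faint red signal limits falls to bounds.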
